A study of Mus musculus with 2 samples.

Results

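The calcium pumps described here are the 7 genes of the SERCA family (Atp2a1, Atp2a2 and Atp2a3) and the PMCA family (Atp2b1, Atp2b2, Atp2b3 and Atp2b4). They were chosen by name, and all 7 are among the 15474 genes of the deposited counts. Atp2a1 was taken up because its level differed strongly between the 2 plates of the experiment, so that this difference is a description and not a finding, and its paralogs serve as comparison. Cells of the dentate gyrus (DG) of C57BL/6J mice aged 4 to 5 weeks were profiled by SORT-seq. In this method single cells are sorted into wells that each hold a primer with its own barcode, and molecules are counted from their 3′ ends by unique molecular identifiers (UMIs). The fresh plate held cells pooled from 3 mice and sorted with a dead cell stain. The MeOH-fixed plate held cells pooled from 4 other mice, fixed in methanol, stored frozen for 3 weeks, rehydrated and sorted without that stain. Each plate has 384 barcodes, of which 64 fresh and 132 MeOH-fixed ones passed the filter of the authors, and these cells held 534122 and 729018 UMIs. Both plates used the same 384 barcode numbers. There was 1 library per condition, so that differences cannot be set against the spread of replicates. No test was made, and the 95% intervals cover counting error only.

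SERCA and PMCA proteins are P-type ATPases, which use ATP to move calcium out of the cytosol. SERCA pumps load the endoplasmic reticulum (ER) or, in muscle, the sarcoplasmic reticulum. PMCA pumps expel calcium across the plasma membrane and are stimulated by calmodulin. Atp2a1 encodes SERCA1, the pump of fast-twitch skeletal muscle, Atp2a2 encodes SERCA2, which is used by most tissues including brain, and Atp2a3 encodes SERCA3, known from blood, endothelial and epithelial cells. Of the PMCA genes, Atp2b1 and Atp2b4 are widely expressed, while Atp2b2 and Atp2b3 are known mainly from neurons and sensory cells.

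All P-type ATPases carry an aspartate that is phosphorylated in each transport cycle. The coding sequence around it is shown for 5 of the 7 members because it holds a motif that the family shares, although the reads come from the 3′ ends of the transcripts. Each sequence is 45 bases of the annotated coding strand from GENCODE vM21 on GRCm38, with the 5 codons of the conserved motif that starts with the aspartate in capitals.
Atp2a1: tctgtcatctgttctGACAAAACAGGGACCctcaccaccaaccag
Atp2a3: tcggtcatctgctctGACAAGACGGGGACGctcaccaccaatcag
Atp2b1: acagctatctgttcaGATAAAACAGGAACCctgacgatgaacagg
Atp2b2: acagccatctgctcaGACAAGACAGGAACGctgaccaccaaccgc
Atp2b4: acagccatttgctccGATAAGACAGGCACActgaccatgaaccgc

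These windows lie at chr7:126456392-126456436 (minus strand, exon 9) for Atp2a1 and chr11:72975591-72975635 (plus strand, exon 8) for Atp2a3. Those of the PMCA genes lie at chr10:98999802-98999846 (plus strand, exon 10) for Atp2b1, chr6:113789888-113789932 (minus strand, exon 13) for Atp2b2 and chr1:133731798-133731842 (minus strand, exon 10) for Atp2b4. The 15 capital bases differed at 3 positions between Atp2a1 and Atp2a3. Over 21 pairs of members, the annotated transcripts shared 0 words of 60 bases, the length of the mapped read. Atp2a1 overlaps exons of Rabep2 on the opposite strand, and whether the counting used strand is not given in the sources used here. In the barcodes with at least 2 UMIs of Atp2a1 (16 fresh and 8 MeOH-fixed), Rabep2 had 0 UMIs on either plate. Its UMIs were few, 8 in 5 fresh and 10 in 10 MeOH-fixed barcodes, so that this 0 cannot decide whether strand was used.

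Atp2a1 had the most UMIs of the SERCA genes on the fresh plate, a rank that rested on 1 cell, and few on the MeOH-fixed plate. It had 239 UMIs on the fresh plate, which is 446 CPM (counts scaled to a common total per plate; interval 391 to 506), and 26 UMIs or 35.4 CPM (23.1 to 51.9) on the MeOH-fixed plate, 12.6-fold less. Its share of the SERCA UMIs was 59.0% (54.0 to 63.8%) on the fresh plate and 7.08% (4.68 to 10.2%) on the other. Without the cell with the most Atp2a1 UMIs on each plate, an alternative added after the values had been seen, the shares were 36.5% and 2.91%, and fresh cells held 95 UMIs of Atp2a1 against 159 of Atp2a2. Divided by the length of annotated exons, which a count of 3′ ends does not require, the shares were 71.5% and 11.8%. Atp2a2 had 160 UMIs and 295 CPM (251 to 345) in fresh cells and 341 UMIs and 464 CPM (416 to 516) in MeOH-fixed cells. Its level was thus 1.57-fold higher on the MeOH-fixed plate, opposite in direction to Atp2a1, and the intervals of the 2 plates did not overlap. This difference depended on the scaling: its log2 ratio (MeOH-fixed to fresh) was 0.65 by CPM, 0.17 by spike-in counts and 0.05 per cell. Atp2a3 had 6 UMIs on the fresh plate and 0 on the other, and the upper bound of its log2 ratio was -0.68. Without Atp2a1, the SERCA genes summed to 306 CPM in fresh and 464 CPM in MeOH-fixed cells.

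The PMCA genes were led by Atp2b1 and then Atp2b2 on both plates by UMIs. Atp2b1 had 427 CPM (374 to 486) in fresh and 672 CPM (614 to 734) in MeOH-fixed cells, and Atp2b2 had 103 CPM (78.1 to 134) and 225 CPM (192 to 262). Atp2b1 took 74.8% of the fresh PMCA UMIs (69.5 to 79.5%) and 68.3% of the MeOH-fixed ones (64.7 to 71.7%), and per exon length 66.2% and 62.0%. Atp2b4 had 10 UMIs or 18.4 CPM (8.84 to 33.9) in fresh and 52 UMIs or 70.8 CPM (52.8 to 92.8) in MeOH-fixed cells, 3.84-fold more. Atp2b3 had 12 UMIs on each plate, or 22.1 CPM (11.4 to 38.6) and 16.3 CPM (8.44 to 28.5), and its intervals overlapped. The order of Atp2b3 and Atp2b4 on the fresh plate was not resolved at this depth. Summed, the PMCA genes had 571 CPM in fresh and 984 CPM in MeOH-fixed cells.

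**Figure D1:**
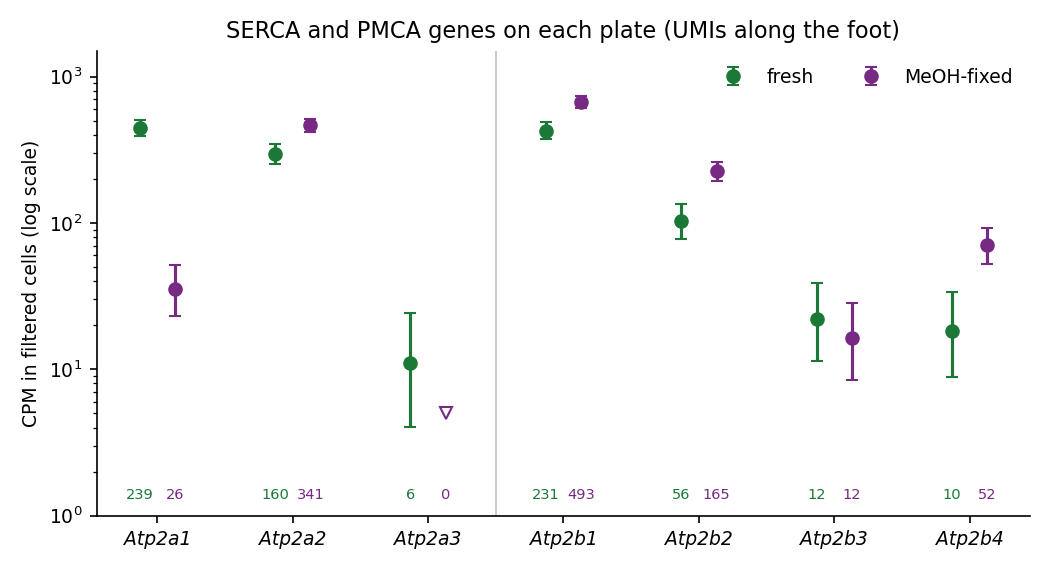
CPM of the 7 calcium pump genes (log axis) summed over the filtered cells of each plate, with 95% Poisson intervals and the UMIs along the foot; the open triangle marks the upper limit of a gene with 0 UMIs. Atp2a1 falls from 446 to 35.4 CPM from fresh to MeOH-fixed cells, while Atp2a2, Atp2b1, Atp2b2 and Atp2b4 lie higher in MeOH-fixed cells.

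Of 6 members with at least 20 UMIs over both plates, 1 was at least 2-fold lower in MeOH-fixed cells (Atp2a1), against 8.87% of the 8804 genes with that many UMIs. A further 2 members were at least 2-fold higher (Atp2b2 and Atp2b4), against 11.0% of these genes, whose median log2 ratio (MeOH-fixed to fresh) was 0.10. Atp2b2 was no longer 2-fold higher when scaled by spike-in counts (0.63) or per cell (0.51), nor was Atp2b4 without immature neurons (0.20) or with identities weighted equally (0.79). The log2 ratios were -3.66 for Atp2a1 (-4.29 to -3.06), 0.65 for Atp2a2 (0.37 to 0.92), 0.65 for Atp2b1 (0.42 to 0.88), 1.12 for Atp2b2 (0.66 to 1.57), -0.44 for Atp2b3 (-1.73 to 0.83) and 1.94 for Atp2b4 (0.94 to 3.07). The contrast is the one that led to the choice of Atp2a1, and nothing is read from its count.

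The UMIs of Atp2a1 sat in very few cells. In fresh cells, 10 of 64 had a UMI of Atp2a1 (15.6%, exact interval 7.76 to 26.9%), and 1 cell annotated among the nIPCs (neuronal intermediate progenitor cells) and neuroblasts held 144 of the 239 UMIs, or 60.3%. The 4 highest fresh cells held 97.1%. In MeOH-fixed cells, 3 of 132 had a UMI (2.27%, 0.471 to 6.50%), with 16 UMIs in an immature neuron, 7 in a cell of the nIPCs and neuroblasts and 3 in a cell of the astrocytes and RGLs (radial glia-like cells). By contrast, 44 of 64 fresh cells (68.8%) and 79 of 132 MeOH-fixed cells (59.8%) had a UMI of Atp2a2, and the 4 highest cells held 36.2% and 21.4% of its UMIs. For Atp2b1, 39 fresh cells (60.9%) and 81 MeOH-fixed cells (61.4%) had a UMI.

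Most Atp2a1 molecules were in barcodes that failed the filter. Over all 384 barcodes of a plate there were 599 UMIs of Atp2a1 in 26 fresh barcodes and 61 UMIs in 12 MeOH-fixed barcodes, of which 360 and 35 UMIs lay in failed barcodes. Failed barcodes thus held 60.1% and 57.4% of the Atp2a1 UMIs. They held 17.5% and 2.85% of those of Atp2a2, and 16% and 4.83% of those of Atp2b1. Over all genes, failed barcodes held 140164 of the 674286 UMIs of the fresh plate and 83655 of the 812673 UMIs of the MeOH-fixed plate.

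The barcodes with several UMIs of Atp2a1 coincided between plates. All 16 fresh and all 8 MeOH-fixed barcodes with at least 2 UMIs of Atp2a1 had odd numbers, between 211 and 301 on the fresh plate and between 255 and 277 on the MeOH-fixed plate. Of the barcodes with any Atp2a1, 10 were shared, which is 38.5% of the fresh list and 83.3% of the MeOH-fixed one. Barcode 267 had 144 UMIs on the fresh plate, where it passed the filter, and 16 on the MeOH-fixed plate, where it failed. Barcode 261 had 123 UMIs on the fresh plate, where it failed, and 16 on the MeOH-fixed plate, where it was annotated as an immature neuron. Barcode 275 had 56 and 7 UMIs, with an identity of astrocytes and RGLs on the fresh and of nIPCs and neuroblasts on the MeOH-fixed plate. This was the only one of the 10 shared numbers with an annotated identity on both plates. Between numbers 255 and 277, the 12 odd barcodes had 521 fresh and 57 MeOH-fixed UMIs of Atp2a1, and the 11 even barcodes had 1 and 0. The well to which each number belongs is not given in the sources used here.

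**Figure D2:**
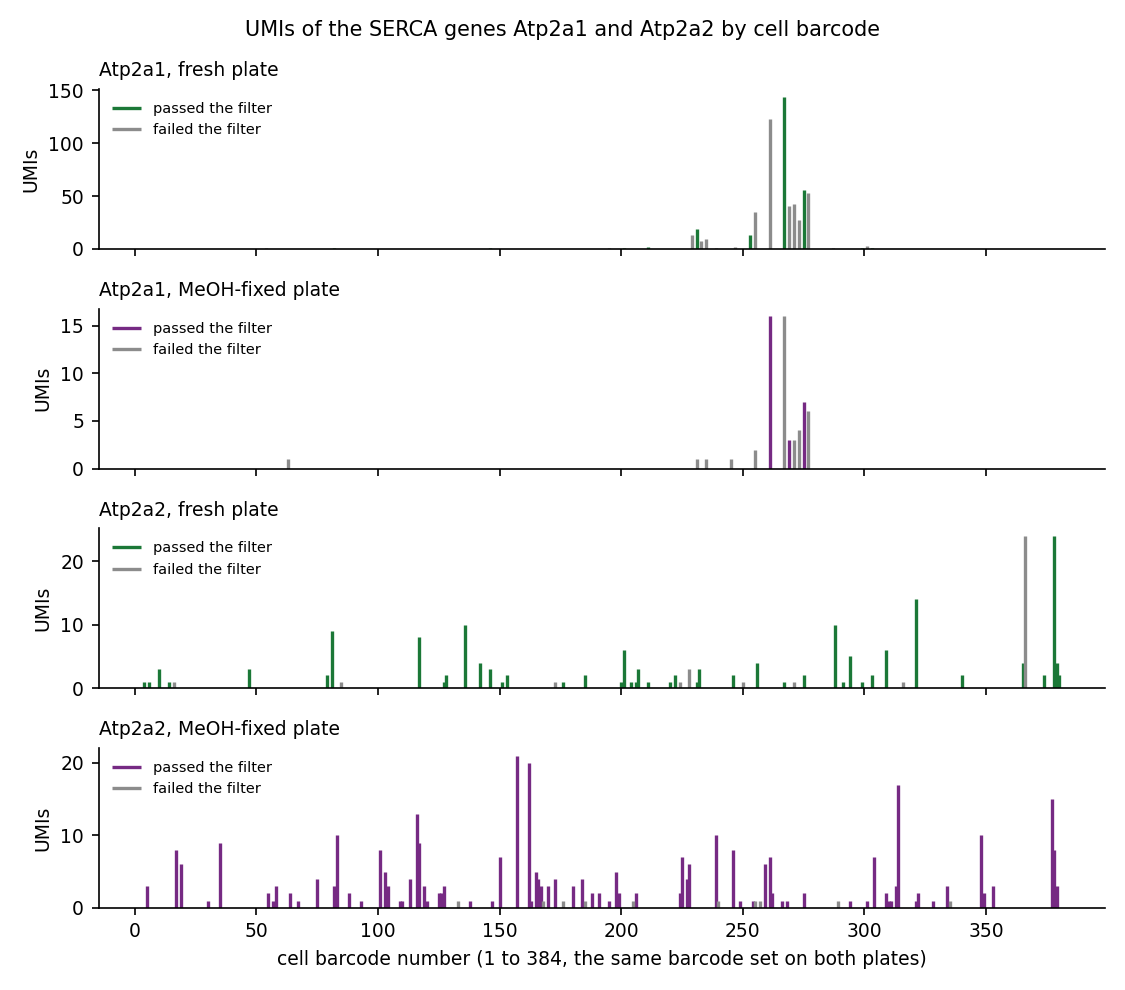
UMIs of Atp2a1 (upper panels) and Atp2a2 (lower panels) at each of the 384 barcode numbers of the fresh and the MeOH-fixed plate, with barcodes that failed the filter in grey and a separate vertical scale for each panel. Atp2a1 stands at the same few numbers on both plates, 521 of its fresh and 57 of its MeOH-fixed UMIs at the odd numbers between 255 and 277, whereas Atp2a2 is spread over the whole range.

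At the 8 numbers with at least 2 UMIs on both plates, the MeOH-fixed plate held 57 Atp2a1 UMIs against 521 on the fresh plate, or 10.9%, and the share ranged from 5.71 to 14.8% from barcode to barcode. The choice of these numbers leaves out low shares, so that the range is narrowed by it. Numbers 229, 233 and 253 had 13, 7 and 13 UMIs on the fresh plate and 0 on the other, and 231 had 19 and 1. Total UMIs of the 8 barcodes, by which they were not chosen, were 3.60 to 408% of the fresh totals on the MeOH-fixed plate, and 72.0% when summed. Atp2a2 had 4 UMIs at the same 8 numbers on the fresh and 10 on the MeOH-fixed plate.

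Over the 384 barcode numbers, log2(UMIs + 1) of Atp2a1 had a Pearson correlation of 0.88 between the plates. The same correlation was computed for the 5436 genes with at least 20 UMIs on each plate. It was above 0.5 for 1 of them, or 0.0184%, and that gene was Atp2a1. The muscle genes with a pattern like that of Atp2a1 had fewer UMIs on the MeOH-fixed plate and were not among these genes. With a minimum of 5 UMIs on each plate, added after the values had been seen, 11 of 10091 genes (0.109%) were above 0.5, Atp2a1 first with 0.88. They included 5 of the 7 skeletal muscle markers compared, namely Tnnc2 (0.83), Ckm (0.82), Myh4 (0.77), Tnnt3 (0.71) and Acta1 (0.65). With the minimum of 20, the next gene after Atp2a1, Rbm34, had 0.33, the median was 0.01 and the 99th percentile 0.16. Among the other members, the correlation was 0.08 for Atp2a2, -0.00 for Atp2b1 and 0.03 for Atp2b2, and that of the total UMIs of a barcode was 0.12. The points share their barcode set, the correlations are descriptions, and the pattern was looked for after the values of Atp2a1 had been seen.

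**Figure D3:**
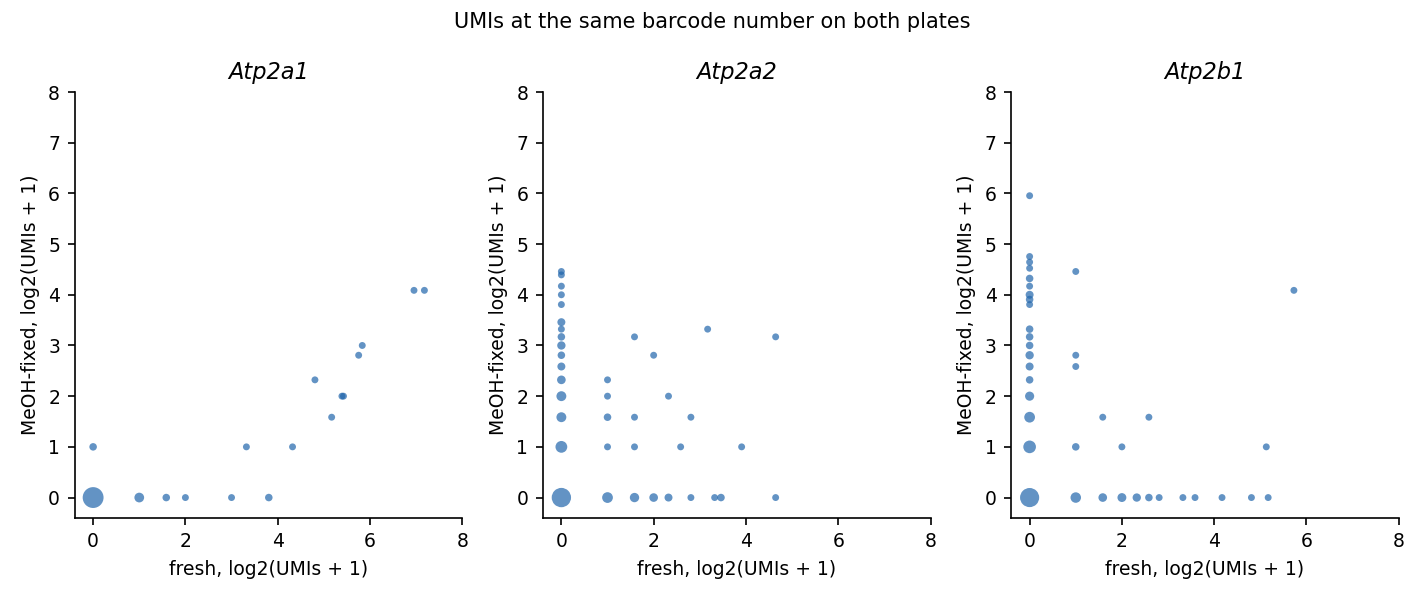
UMIs at the same barcode number on the fresh (horizontal) and the MeOH-fixed plate (vertical), on a log2(UMIs + 1) scale, with larger points where more of the 384 numbers coincide. Atp2a1 rises along a line (Pearson r 0.88), while Atp2a2 (0.08) and Atp2b1 (-0.00) do not.

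Transcripts of skeletal muscle lay in the same barcodes as Atp2a1. A list of 14 markers of skeletal muscle, which does not contain Atp2a1, was summed per barcode. On the fresh plate 591 of 643 UMIs of this list (91.9%) lay in the 26 barcodes with Atp2a1, which held 15.3% of all UMIs. On the MeOH-fixed plate it was 61 of 95 (64.2%) in the 12 barcodes with Atp2a1, which held 3.15% of all UMIs. All 14 markers had a UMI on the fresh plate, and 10 of 14 on the MeOH-fixed plate, where Myh1, Myh2, Actn3 and Cacna1s were at 0. Among barcodes with at least 2 UMIs of Atp2a1, the summed markers ranged from 3 to 160 UMIs on the fresh and from 1 to 13 on the MeOH-fixed plate. In barcodes without Atp2a1 the sum reached 11 and 3 at most.

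Among these markers, the fast troponin T Tnnt3 had 146 UMIs on the fresh plate, 137 of them in barcodes with Atp2a1, and 16 on the MeOH-fixed plate, 13 of them there. The muscle creatine kinase Ckm had 95 UMIs on the fresh plate, 90 in these barcodes, and 12 on the MeOH-fixed plate, all 12 there. The markers whose UMIs all lay outside these barcodes on the MeOH-fixed plate were Casq1, the calcium buffer of the sarcoplasmic reticulum, with 0 of 2 UMIs there (11 of 12 on the fresh plate), and Ryr1. Ryr1 encodes the calcium release channel of the sarcoplasmic reticulum, which is also used in brain, and it had 6 of 19 UMIs in these barcodes on the fresh plate and 0 of 23 on the MeOH-fixed plate. In filtered cells this log2 ratio was -3.35 for the actin Acta1, -3.70 for Tnnt3, -4.40 for the fast troponin C Tnnc2, -3.25 for Ckm and -3.57 for the fast myosin Myh4, beside -3.66 for Atp2a1, and 1.76 for Ryr1. The other 8 markers had fewer than 20 UMIs in filtered cells. At the 8 shared numbers, the markers summed to 503 UMIs on the fresh and 58 on the MeOH-fixed plate, or 11.5%, beside 10.9% for Atp2a1.

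Over the 384 barcodes of a plate, the correlation with the summed muscle markers on the log2(UMIs + 1) scale was 0.91 on the fresh and 0.75 on the MeOH-fixed plate for Atp2a1. It was 0.15 and 0.28 for Atp2a2 and 0.15 and 0.27 for Atp2b1. With the total UMIs of a barcode it was 0.24 and 0.07 for Atp2a1, 0.63 and 0.66 for Atp2a2, and 0.59 and 0.64 for Atp2b1. The summed markers themselves had a correlation of 0.68 between plates. When all genes with at least 20 UMIs on the fresh plate were compared, those most like Atp2a1 over the barcodes were the myosin light chain Myl1 (0.96), the calcium-binding parvalbumin Pvalb (0.93), Tnnt3 (0.93), Tnnc2 (0.93) and Ckm (0.92), a comparison added after the values had been seen. On the MeOH-fixed plate, with 10 to 18 UMIs each, their correlations with Atp2a1 were 0.50, 0.85, 0.81, 0.79 and 0.87.

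**Figure D4:**
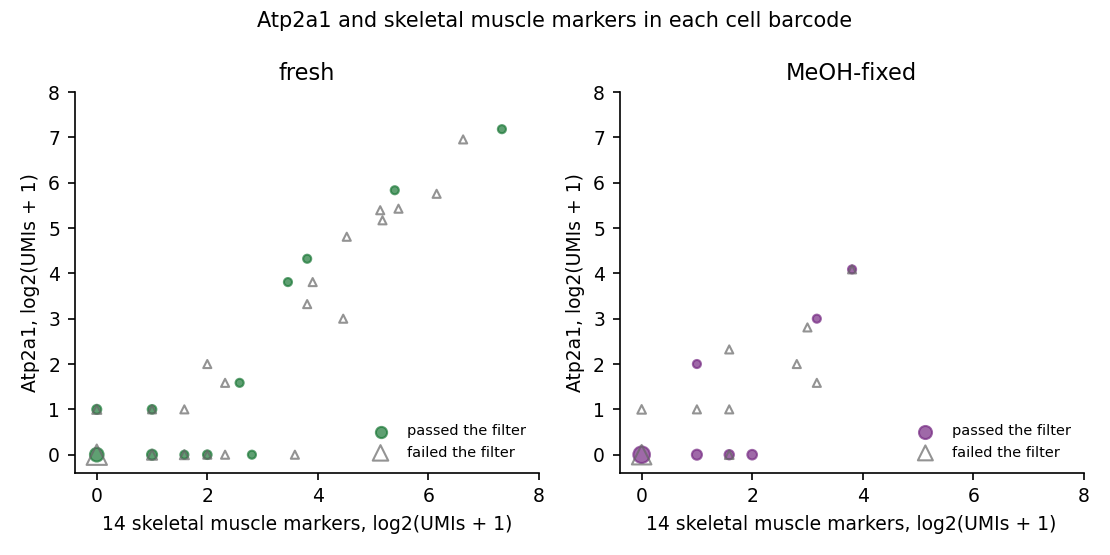
UMIs of Atp2a1 against the summed UMIs of 14 skeletal muscle markers in each of the 384 barcodes of a plate, on a log2(UMIs + 1) scale, with filled circles for barcodes that passed the filter and open triangles for those that failed. The correlation is 0.91 on the fresh and 0.75 on the MeOH-fixed plate, with passing and failing barcodes side by side.

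Without the cells that held 3 or more UMIs of the muscle markers, an alternative added after the values had been seen, 56 fresh and 125 MeOH-fixed cells remained, with 5 and 3 UMIs of Atp2a1. Its share of the SERCA UMIs was then 3.11% in fresh and 1.08% in MeOH-fixed cells, against 59.0% and 7.08% in all filtered cells. The log2 ratios of Atp2a2 (0.48), Atp2b1 (0.27) and Atp2b2 (0.94) stayed above 0. This cut also removed MeOH-fixed cells without Atp2a1. Those at barcodes 157, 162, 170, 259 and 378 had 3 marker UMIs and 0 Atp2a1 UMIs each. They held 61, 21, 19, 17 and 16 UMIs of Atp2b1, so that the lower ratio of Atp2b1 cannot be read as a removal of muscle RNA. The part that RNA of muscle, or the barcode itself, has in the Atp2a1 counts was not tested.

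Cell identities were taken from the annotation of the authors. Their own markers were highest in the named identity in 14 of 16 identity-by-plate groups. The exceptions were fresh immature neurons, whose markers were highest in nIPCs and neuroblasts, and fresh mature neurons (2 cells), whose markers were highest in immature neurons. Neurons held 20.3% of the filtered UMIs on the fresh plate but 53.2% on the other, so that a plate sum weighs the identities differently.

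Atp2a2, the SERCA gene of most tissues, was found in every identity on the MeOH-fixed plate and in all but the mature neurons on the fresh plate. By CPM it was highest in immature neurons on the fresh plate, with 547 CPM (409.8 to 716) in 5 cells. On the MeOH-fixed plate it was highest in neurons, with 601 CPM (517 to 695) in 25 immature and 617 CPM (462 to 806) in 19 mature neurons. The 2 fresh mature neurons had 0 UMIs, which allows up to 259 CPM. MeOH-fixed oligodendrocytes followed with 448 CPM (322 to 608), and their interval overlapped those of the neurons. Astrocytes and RGLs had 442 CPM (327 to 584) in fresh and 270.1 CPM (169 to 409) in MeOH-fixed cells. Their fresh interval overlapped that of fresh immature neurons, as did others, such as that of fresh OPCs (oligodendrocyte precursor cells) with 312 CPM (178 to 506). The rank of fresh immature neurons was thus not resolved. The lowest level with 10 or more cells was that of fresh microglia, with 129 CPM (47.4 to 281), next to fresh nIPCs and neuroblasts with 140.4 CPM (90.9 to 207). In fresh immature neurons the UMIs per cell were 1 to 24 with a median of 10, and in MeOH-fixed ones 0 to 21 with a median of 7.

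Atp2a3 was found in 2 of 6 fresh endothelial cells, with 6 UMIs or 308 CPM (113 to 670.4), and in no other fresh cell. It made up 54.5% of the SERCA UMIs of these endothelial cells, Atp2a2 the remaining 45.5%. In 8 MeOH-fixed endothelial cells 0 UMIs were counted, which allows up to 178 CPM, within the interval of the fresh cells. The upper bound of the log2 ratio (MeOH-fixed to fresh) in endothelial cells was nevertheless below 0, at -0.32, from 6 and 0 UMIs. Atp2a1 was at 0 in endothelial cells on both plates.

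Atp2b1, the general plasma membrane pump, was highest in neurons. It had 1314 CPM (1096 to 1564) in fresh and 1112 CPM (997 to 1237) in MeOH-fixed immature neurons, and 954 CPM (759 to 1184) in MeOH-fixed mature neurons, whose interval overlapped that of the MeOH-fixed immature neurons. All 5 fresh and all 25 MeOH-fixed immature neurons had a UMI, with 3 to 52 (median 27) and 1 to 61 (median 13) per cell. Glia and microglia lay below these neurons, while the 2 fresh mature neurons had 1 UMI in all. MeOH-fixed oligodendrocytes had 219 CPM (133 to 338), OPCs 211 CPM (101 to 388), microglia 204 CPM (42.0 to 595), and astrocytes and RGLs 159.6 CPM (85.0 to 273), with intervals that overlapped each other. In nIPCs and neuroblasts the gene lay between these and the neurons on the fresh plate, at 377 CPM (292 to 478), and at 249 CPM (156 to 376) on the MeOH-fixed plate.

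For Atp2b2, the neuronal PMCA2 gene, neurons held 78.6% of its UMIs on the fresh and 89.1% on the MeOH-fixed plate. Immature neurons had 454 CPM (329.9 to 609.6) in fresh and 374 CPM (309 to 449.7) in MeOH-fixed cells, and MeOH-fixed mature neurons had 384 CPM (264 to 539), which did not differ beyond counting error. In MeOH-fixed cells 24 of 25 immature neurons and 12 of 19 mature neurons had a UMI. None was counted in 10 fresh or 7 MeOH-fixed microglia or in 13 MeOH-fixed oligodendrocytes, which allows up to 40.3 CPM in the latter. Astrocytes and RGLs had 27.0 CPM (5.58 to 79.0) in fresh and 123 CPM (58.9 to 226) in MeOH-fixed cells.

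Atp2b4 was found mainly in MeOH-fixed immature neurons, with 42 of its 52 UMIs on that plate, in 15 of 25 cells, and 138 CPM (99.4 to 186). The 5 fresh immature neurons had 1 UMI or 10.3 CPM (0.261 to 57.4), and the 2 intervals did not overlap. On the fresh plate 7 of its 10 UMIs were in nIPCs and neuroblasts, with 39.3 CPM (15.8 to 81.0), beside 33.9 CPM (6.99 to 99.1) in the same identity on the MeOH-fixed plate. Atp2b3 was counted in neurons and in nIPCs and neuroblasts only. It had 41.2 CPM (11.2 to 106) in fresh and 36.1 CPM (18.0 to 64.6) in MeOH-fixed immature neurons, and 44.9 CPM (19.4 to 88.5) in fresh nIPCs and neuroblasts, against 0 UMIs in the 21 MeOH-fixed ones, which allows up to 41.7 CPM.

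**Figure D5:**
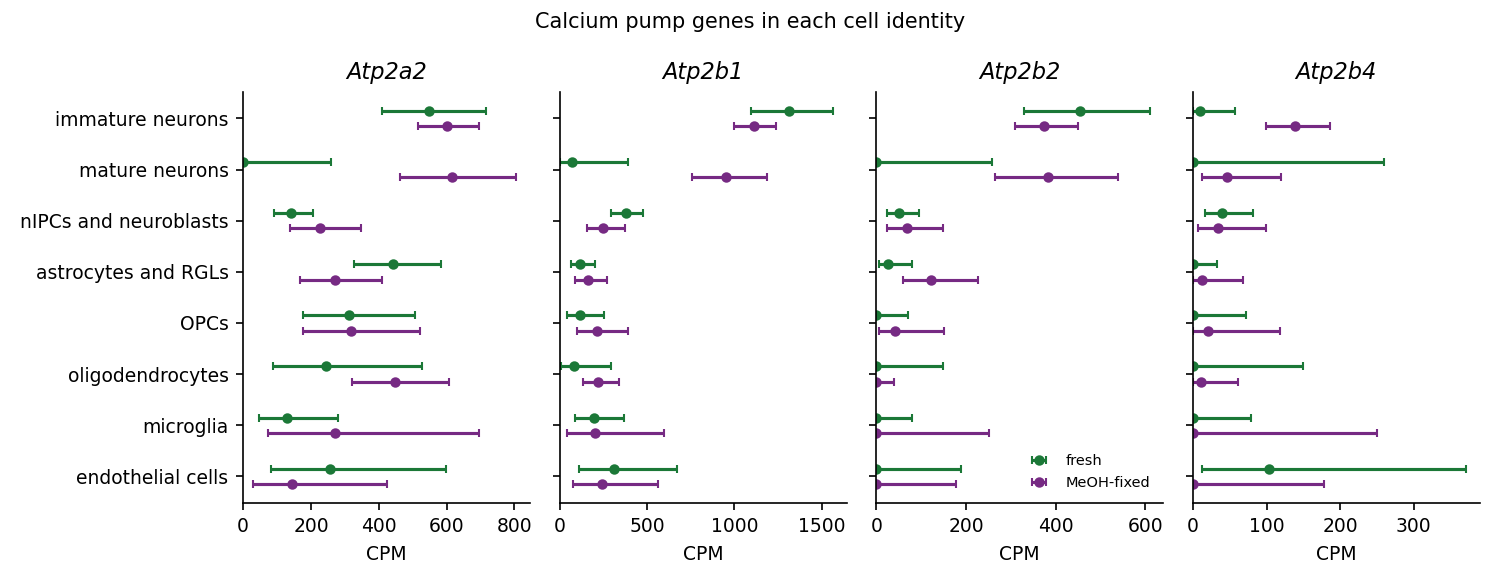
CPM of Atp2a2, Atp2b1, Atp2b2 and Atp2b4 in each cell identity on the fresh and the MeOH-fixed plate, with 95% Poisson intervals; the fresh mature neurons and fresh oligodendrocytes are 2 cells each. Atp2b1 is highest in immature neurons on both plates, Atp2b2 has overlapping intervals in MeOH-fixed immature and mature neurons (374 and 384 CPM), and Atp2b4 differs between plates in immature neurons (10.3 and 138 CPM).

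Within identities of at least 5 cells on both plates, the higher plate sums of the paralogs in MeOH-fixed cells were mostly not resolved. In immature neurons, MeOH-fixed to fresh, the log2 ratio came to 0.14 for Atp2a2 (-0.31 to 0.61), -0.24 for Atp2b1 (-0.54 to 0.07) and -0.28 for Atp2b2 (-0.79 to 0.26), while the plate sums had given 0.65, 0.65 and 1.12. In nIPCs and neuroblasts it was 0.69 for Atp2a2 (-0.25 to 1.58) and -0.60 for Atp2b1 (-1.38 to 0.10). In astrocytes and RGLs it was -0.71 for Atp2a2 (-1.51 to 0.04) and 2.18 for Atp2b2 (0.22 to 4.68), the latter from 3 and 10 UMIs. These intervals, other than that of Atp2b2 in astrocytes and RGLs, include 0. In mature neurons, where the fresh group is 2 cells, the fresh and MeOH-fixed UMIs were 0 and 53 for Atp2a2 and 0 and 33 for Atp2b2, with lower bounds of the log2 ratio of 0.99 and 0.27. For Atp2b1 they were 1 and 82, with a log2 ratio of 3.76 (1.03 to 8.87). For Atp2b4 in immature neurons the ratio was 3.74 (1.18 to 9.08). For Atp2a1 it was -4.48 (-6.79 to -2.89) in astrocytes and RGLs and -3.38 (-4.71 to -2.29) in nIPCs and neuroblasts, where 1 fresh and 1 MeOH-fixed cell held all the UMIs.

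Other genes of calcium handling were followed in 8 lists of 50 genes in all, of which 42 were counted and 31 had at least 20 UMIs. None of the 31 was at least 2-fold lower in MeOH-fixed cells and 8 were at least 2-fold higher, against 8.87% and 11.0% of all such genes, with a median log2 ratio of 0.66 against 0.10. Of the SERCA regulators, the muscle micropeptide phospholamban (Pln) had 4 fresh and 0 MeOH-fixed UMIs, and sorcin (Sri) had 73.8 and 112 CPM. None of the 2 regulators with enough UMIs passed 2-fold. Among the ER release channels, 3 of 5 were at least 2-fold higher: Itpr1, an inositol trisphosphate receptor (36.9 and 78.9 CPM in fresh and MeOH-fixed cells), and the ryanodine receptors Ryr1 (9.22 and 31.3 CPM) and Ryr3 (18.4 and 53.1 CPM). Ryr1 rested on 5 fresh and 23 MeOH-fixed UMIs, with a log2 ratio interval of 0.33 to 3.50. Ryr2 had 120.1 and 193 CPM, and Itpr2 went the other way with 118 and 79.0 CPM.

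Of the genes of store-operated entry, which refills the ER from outside, 1 of 3 was at least 2-fold higher, the ER calcium sensor Stim2 (55.3 and 112 CPM). The Golgi calcium pump Atp2c1 had 66.4 and 156 CPM. Among the sodium-calcium exchangers, which share the export of calcium with PMCA, 3 of 5 were at least 2-fold higher: Slc8a2 (83.1 and 225 CPM), Slc8a3 (9.22 and 21.8 CPM) and Slc24a2 (101 and 256 CPM). Slc8a3 rested on 5 fresh and 16 MeOH-fixed UMIs, and the interval of its log2 ratio (-0.29 to 3.03) included 0. None of 6 genes of mitochondrial uptake, 4 of the ER lumen or 5 partners of PMCA passed 2-fold. The ER calcium buffer Calr had 253 and 384 CPM. Basigin (Bsg), which with neuroplastin (Nptn) forms complexes with PMCA, had 604 and 370.5 CPM, and Nptn 322 and 478 CPM. Of 6 subunits of the sodium pump, which is a related P-type ATPase, 1 was at least 2-fold lower and 2 were at least 2-fold higher. The shares of all genes with at least 20 UMIs were 8.87% and 11.0%. Among the 2 higher ones was the beta subunit gene Atp1b1 (397 and 1069.8 CPM).

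Genes next to Atp2a1 were compared too. Of 9 annotated protein-coding genes within 100 kb, 8 were counted, 5 had at least 20 UMIs, and none of these was 2-fold different, with log2 ratios from -0.88 for Spns1 to 0.31 for Atxn2l. Of 3 markers of smooth muscle and pericytes with at least 20 UMIs, 2 were at least 2-fold lower in MeOH-fixed cells, against 8.87% of all such genes. The list had 112 fresh and 30 MeOH-fixed UMIs, of which Acta2 gave 60 and 4. Pdgfrb had 15 and 14 UMIs, and the interval of its log2 ratio (-1.71 to 0.60) included 0. The hemoglobin gene counted under its older name Beta-s had 7 and 72 UMIs, the GABA neuron genes Gad1 22 and 97 and Gad2 2 and 0, the ependymal Foxj1 3 and 3, and the granule neuron gene Prox1 61 and 32.

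Over the 14 identity-by-plate groups with at least 5 cells, the genes whose log2(CPM + 10) was most like that of each member were named by rank. For Atp2a1 these were Ezr, Nr2f1, Nfix, Fgfr1 and Nfia, with r from 0.70 to 0.81 among 2514 genes, and none of them was among the genes most like it over barcodes. For Atp2a2 they were Bai1, Cck, B3gat1, Wipf3 and C1ql2 (0.80 to 0.85), for Atp2b1 Sphkap, Rasl10a, Camkk1, Ryr2 and Cbx6 (0.91 to 0.92), and for Atp2b2 Dlg3, Pacsin1, D3Bwg0562e, Grin1 and Bai2 (0.94 to 0.95). The groups share plates and depths, and the correlations are descriptions. For Atp2a1 several group values came from 1 cell each, such as 144 UMIs in fresh nIPCs and neuroblasts and 16 in MeOH-fixed immature neurons. Its likeness thus partly reflects which identity held that cell.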

How the data were processed

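SORT-seq was run on 1 fresh and 1 MeOH-fixed plate. The authors mapped reads to GRCm38 with STAR, discarded reads mapping equally well to several places, removed UMI duplicates and deposited expected counts, in which each UMI number is corrected for molecules sharing 1 of 4096 UMIs. Adjustment raises high counts slightly. Whole UMIs were recovered by inversion (largest distance from a whole number 3.64e-12). The percent of mitochondrial counts, spike-in expected counts and cell identities were used as deposited by the authors, who retained barcodes by transcripts, genes, their ratio and spike-ins. Levels are CPM over filtered cells, with exact Poisson intervals; ratios have exact conditional binomial and shares exact Clopper-Pearson intervals (95%). Doublets were not called. All per-sample columns were mapped to a plate by name. Median depth was 6318 UMIs per fresh and 3452 per MeOH-fixed cell. Ratio intervals were tested on simulated Poisson counts only, which lack the concentration of UMIs in few cells seen for Atp2a1. Python 3.11.15, numpy 2.4.6, pandas 2.3.3 and scipy 1.17.1 were used.

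The members and lists were chosen with earlier results of these data known. Genes named are the members, the genes of the calcium handling, sodium pump and marker lists, neighbours within 100 kb of Atp2a1 and the 5 genes most like each member with at least 100 UMIs. Protein sequences were not used here. Values of some listed genes and some coding windows are not reported here. Alternatives changed the scaling, the cells counted, the identities and the thresholds.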

Additional observations from a re-analysis of the deposited data

Results flagged for a closer look

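Barcodes that failed the filter are not counted in the levels of the filtered cells, and calcium pump UMIs above the limit of 3 counts were found there. Atp2a1 had 360 UMIs in 16 of 320 failed fresh barcodes and 35 UMIs in 9 of 252 failed MeOH-fixed barcodes, which is 2568 CPM (2309.9 to 2848) and 418 CPM (291 to 582) of the UMIs of failed barcodes. Atp2a2 had 34 and 10 UMIs there, Atp2b1 44 and 25, and Atp2b2 17 and 4. Atp2b3 had 4 UMIs and Atp2b4 5 UMIs in failed fresh barcodes. Fresh barcode 366 alone held 24 of the 34 UMIs of Atp2a2 and 35 of the 44 of Atp2b1, and the 5 of Atp2b4 lay in 1 barcode.

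The Atp2a1 sums went in opposite directions in different identities, but most of these sums came from 1 cell. In immature neurons Atp2a1 had 0 fresh and 16 MeOH-fixed UMIs, the latter in 1 cell at barcode 261. That barcode number had 123 UMIs on the fresh plate, where it failed the filter. In astrocytes and RGLs there were 91 UMIs in 5 fresh cells and 3 in 1 MeOH-fixed cell. In nIPCs and neuroblasts there were 144 and 7, each in 1 cell. The direction thus rests on few cells in each identity, and the part of the barcode number in it was not tested. The difference between identities was not tested.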

How the results depend on the processing

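Values are called moved when they left the 95% interval of the value reported, and 125 log2 ratios were recomputed under up to 21 alternatives for a gene. Atp2a1 was chosen for its lower level in MeOH-fixed cells and stayed lower in all 21. These largely count the same few cells, so that the constant direction adds no support. Its log2 ratio moved to -2.62 in failed barcodes and -4.55 without immature neurons. In cells with fewer than 3 muscle marker UMIs, an alternative added after seeing the data, it moved to -1.13. That value came from 5 fresh and 3 MeOH-fixed UMIs, too few to read a direction from. In failed barcodes the direction turned for Atp2a2 (-1.02), Atp2b1 (-0.07), Atp2b2 (-1.34) and Atp2b4 (-1.57). These turns rest largely on 1 failed fresh barcode, 366, for Atp2a2 (24 of 34 UMIs) and Atp2b1 (35 of 44 UMIs). For Atp2b4 all 5 failed fresh UMIs lay in 1 barcode. Scaled by spike-in counts and per cell, the ratios were 0.17 and 0.05 for Atp2a2, 0.17 and 0.05 for Atp2b1, and 0.63 and 0.51 for Atp2b2. With identities weighted equally they were 0.38 for Atp2b1 and 0.79 for Atp2b4, and as means of per-cell CPM 1.63 for Atp2b2 and -1.75 for Atp2b3. Cells of at most 20000 transcripts gave 1.06 for Atp2b1 and 2.49 for Atp2b2. Without immature neurons the ratios were 2.14 for Atp2b2, -2.95 for Atp2b3 and 0.20 for Atp2b4, without astrocytes and RGLs 0.92 for Atp2a2, without nIPCs and neuroblasts 3.20 for Atp2b4, without the highest cell of each plate 1.61 for Atp2b2, and in cells with few muscle marker UMIs 0.27 for Atp2b1. Atp2a3 has no ratio, nor has Atp2b3 in failed barcodes, because of counts of 0. The share of Atp2a1 among SERCA UMIs moved, in fresh and MeOH-fixed cells, to 75.0% and 14.8% in all barcodes, 91.4% and 77.8% in failed barcodes, 71.5% and 11.8% per exon length, and 3.11% and 1.08% in cells with few muscle marker UMIs. In fresh cells it also moved to 67.9% without immature neurons and 40.3% without nIPCs and neuroblasts. Without the cell with the most Atp2a1 UMIs on each plate, also added later, it was 36.5% and 2.91%. Per exon length, the PMCA shares moved to 66.2% and 62.0% for Atp2b1 and to 10.9% and 4.77% for Atp2b3. Thinned to 800 UMIs, the share of cells with a UMI was 7.08% for Atp2a1 in fresh cells and, in fresh and MeOH-fixed cells, 19.9% and 25.4% for Atp2a2, 18.9% and 27.9% for Atp2b1, 4.17% and 12% for Atp2b2, 1.89% and 0.555% for Atp2b3, and 1.76% and 3.52% for Atp2b4. At least 2 UMIs were found in 45.3% and 43.9% of cells for Atp2a2, 40.6% and 40.2% for Atp2b1, 3.12% and 8.33% for Atp2b4, and 24.2% of MeOH-fixed cells for Atp2b2. At folds of 1.5 and 3, 4 and 1 of 6 members were higher in MeOH-fixed cells, in place of 2. Of the 8804 genes compared, 24.5% and 3.26% were higher at these folds. The other 141 of 203 recomputed values stayed within the interval, or within 1.5 times for counts of members. The cause of these changes was not tested. Counts below about 20 UMIs, as in Atp2a3 and Atp2b3, limit what can be compared. No paired analysis was possible because there is 1 library per condition.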
